A study of Homo sapiens with 66 samples.

Results

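The genes described here encode 8 subunits of voltage-gated sodium channels, namely the pore-forming alpha subunits SCN1A, SCN2A, SCN3A, SCN8A and SCN9A and the auxiliary beta subunits SCN2B, SCN3B and SCN4B. They were taken by name, through a match of Ensembl identifiers to GENCODE v44 symbols, as 8 of the 60603 identifiers in the deposited count tables, and all 8 passed the filter on low counts in both fits used below. The series followed H9 human embryonic stem cells (hESC), an established line, by bulk RNA sequencing through neuromesodermal progenitors (hNMP) and spinal cord neural progenitors (hSCNPC) to spinal motor neurons (hMN). Each of the 22 groups had 3 libraries, 66 in all, and the question put here was which sodium channel subunits were present at each stage and in what proportions.

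Every group was wild type H9 by the labels, with no transgene named, so all results come from 1 cell line. The hMN groups were taken at days 6, 12, 18, 24, 30 and 42 of differentiation with Purmorphamine, Compound E and the neurotrophic factors BDNF, GDNF and NT-3. The hSCNPC groups were kept in SB431542, CHIR99021 and Purmorphamine and taken at passages 5, 10, 20, 30 and 40. The hNMP groups (days 1 to 4) were treated with FGF2, CHIR99021, SB431542 and dorsomorphin. The NeuDet groups (days 1 to 6 of neural determination) had FGF2, CHIR99021, SB431542 and dorsomorphin together with FGF8 and Compound E. No library was labelled as day 0 of the motor neuron protocol, so hSCNPC-P10 stands for it here, and which passage was differentiated is not known. The labels number the libraries of a group but do not say whether they were separate cultures, so the spread between them may be technical.

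Voltage-gated sodium channels open when the membrane depolarises and let in the sodium current that forms the rising phase of the action potential. The alpha subunit is a single large protein that makes the whole pore and voltage sensor, while beta subunits are small proteins with 1 membrane span and an immunoglobulin-like outer domain that tune gating and carry channels to the cell surface. In rodents SCN3A is the alpha gene most associated with the embryonic nervous system, SCN2A with immature and unmyelinated axons, and SCN1A and SCN8A with mature neurons, where SCN8A channels gather at the axon initial segment and nodes of Ranvier. SCN9A is best known from sensory and sympathetic neurons.

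The raw counts per library ran from 14142238 to 40204753 with a median of 20676228. Levels are given as CPM, the count relative to the library's total, after TMM scaling (edgeR's correction for library composition) over all 66 libraries, and levels of different genes are compared only per kilobase of annotated exon. The 8 pan-neuronal markers (TUBB3, MAP2 and others) summed to between 49.9 and 56.1 CPM in NeuDet-D6, 1125 and 1181 CPM in hSCNPC-P10, 7168 and 7461 CPM in hMN-D6, and 4944 and 5106 CPM in hMN-D42. The 7 motor neuron markers, among them MNX1, ISL1 and CHAT, summed to 63.1 to 66.3 CPM in hMN-D6, against 4.54 to 5.79 CPM in hSCNPC-P10. In bulk RNA, fewer cells of a type and less RNA per cell cannot be told apart. The median log2 fold change of all genes lay within 0.1 of 0 in every comparison below.

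SCN1A, SCN2A, SCN3A and SCN9A lie in 1 cluster on chromosome 2, which the annotation of hg38 places at chr2:165984641-166149214 for SCN1A (minus strand), chr2:165194993-165392310 for SCN2A (plus), chr2:165087526-165204050 for SCN3A (minus) and chr2:166195185-166376001 for SCN9A (minus). SCN8A stands alone at chr12:51590266-51812864 (plus). The beta genes are all on chromosome 11 and on the minus strand, at chr11:118162806-118176639 (SCN2B), chr11:123629187-123655244 (SCN3B) and chr11:118133377-118152888 (SCN4B). Exons of the antisense gene SCN1A-AS1 cover 8.61% of the SCN1A and 11.4% of the SCN9A exon bases, and unnamed antisense genes cover 8.43% of SCN3A and 4.71% of SCN8A. The strand setting of the counting is not given in the sources used here, so reads from these overlaps cannot be assigned to a strand, whereas no annotated exon overlaps those of the beta genes. Few windows of read length were exactly identical within the family. At most 57 of 12883 windows of 150 bases in SCN3A occurred in another sodium channel gene, and none in SCN8A or the beta genes. Windows that differ by a mismatch were not counted, so reads that could align to more than 1 of these genes were not measured.

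The 250 bases before the RefSeq start (GRCh38.p14) are shown for 3 members chosen for their contrasting detection before the motor neuron stage, with every CG dinucleotide, which reads the same on both strands, in capitals. Of the 8 members, 6 had an entry in the promoter table. SCN8A, counted in every library from hESC onwards, is shown at chr12:51590983-51591232 (plus strand, overlapping an annotated exon of the gene). SCN2A, low before the motor neuron stage, has 2 starts in the table, of which the one within an intron of the annotated gene is shown, at chr2:165240810-165241059 (plus strand). The window of the other start, at chr2:165239164-165239413, overlaps an exon and held 1 CG at 29.2% GC. SCN2B, without a count in the 9 libraries of hSCNPC-P20 to hSCNPC-P40, is shown upstream of the gene at chr11:118176640-118176889 (minus strand).
SCN8A: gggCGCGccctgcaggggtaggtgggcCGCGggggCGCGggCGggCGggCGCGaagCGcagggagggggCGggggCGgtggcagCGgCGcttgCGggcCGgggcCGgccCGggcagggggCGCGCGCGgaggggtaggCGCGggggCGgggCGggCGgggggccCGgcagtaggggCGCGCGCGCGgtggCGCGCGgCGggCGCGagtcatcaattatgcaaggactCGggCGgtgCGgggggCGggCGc
SCN2A: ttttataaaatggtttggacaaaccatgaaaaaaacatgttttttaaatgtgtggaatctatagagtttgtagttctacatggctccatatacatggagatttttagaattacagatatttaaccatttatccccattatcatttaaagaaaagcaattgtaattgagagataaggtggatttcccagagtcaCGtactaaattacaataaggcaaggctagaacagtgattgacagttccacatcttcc
SCN2B: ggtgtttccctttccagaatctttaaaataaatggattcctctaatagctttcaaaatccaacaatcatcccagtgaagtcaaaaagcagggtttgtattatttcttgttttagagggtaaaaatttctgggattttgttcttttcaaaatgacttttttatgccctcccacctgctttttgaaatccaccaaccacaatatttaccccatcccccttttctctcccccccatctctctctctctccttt

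The SCN8A window held 45 CG dinucleotides at 85.6% GC, and only 0.59% of the 35116 promoters in the table held as many. The SCN2A window held 1 CG at 32.0% GC and the SCN2B window none at 38.0% GC, against a median over all promoters of 11 CG and 58.0% GC and at least 1 CG in 93.94% of them. Among the other members with an entry, the SCN9A window had 22 CG, the SCN4B window 17, and the SCN1A windows 1 and 2. SCN3A and SCN3B have no entry in the table. These are descriptions of the sequence, and the counts do not measure promoter activity.

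**Figure D1:**
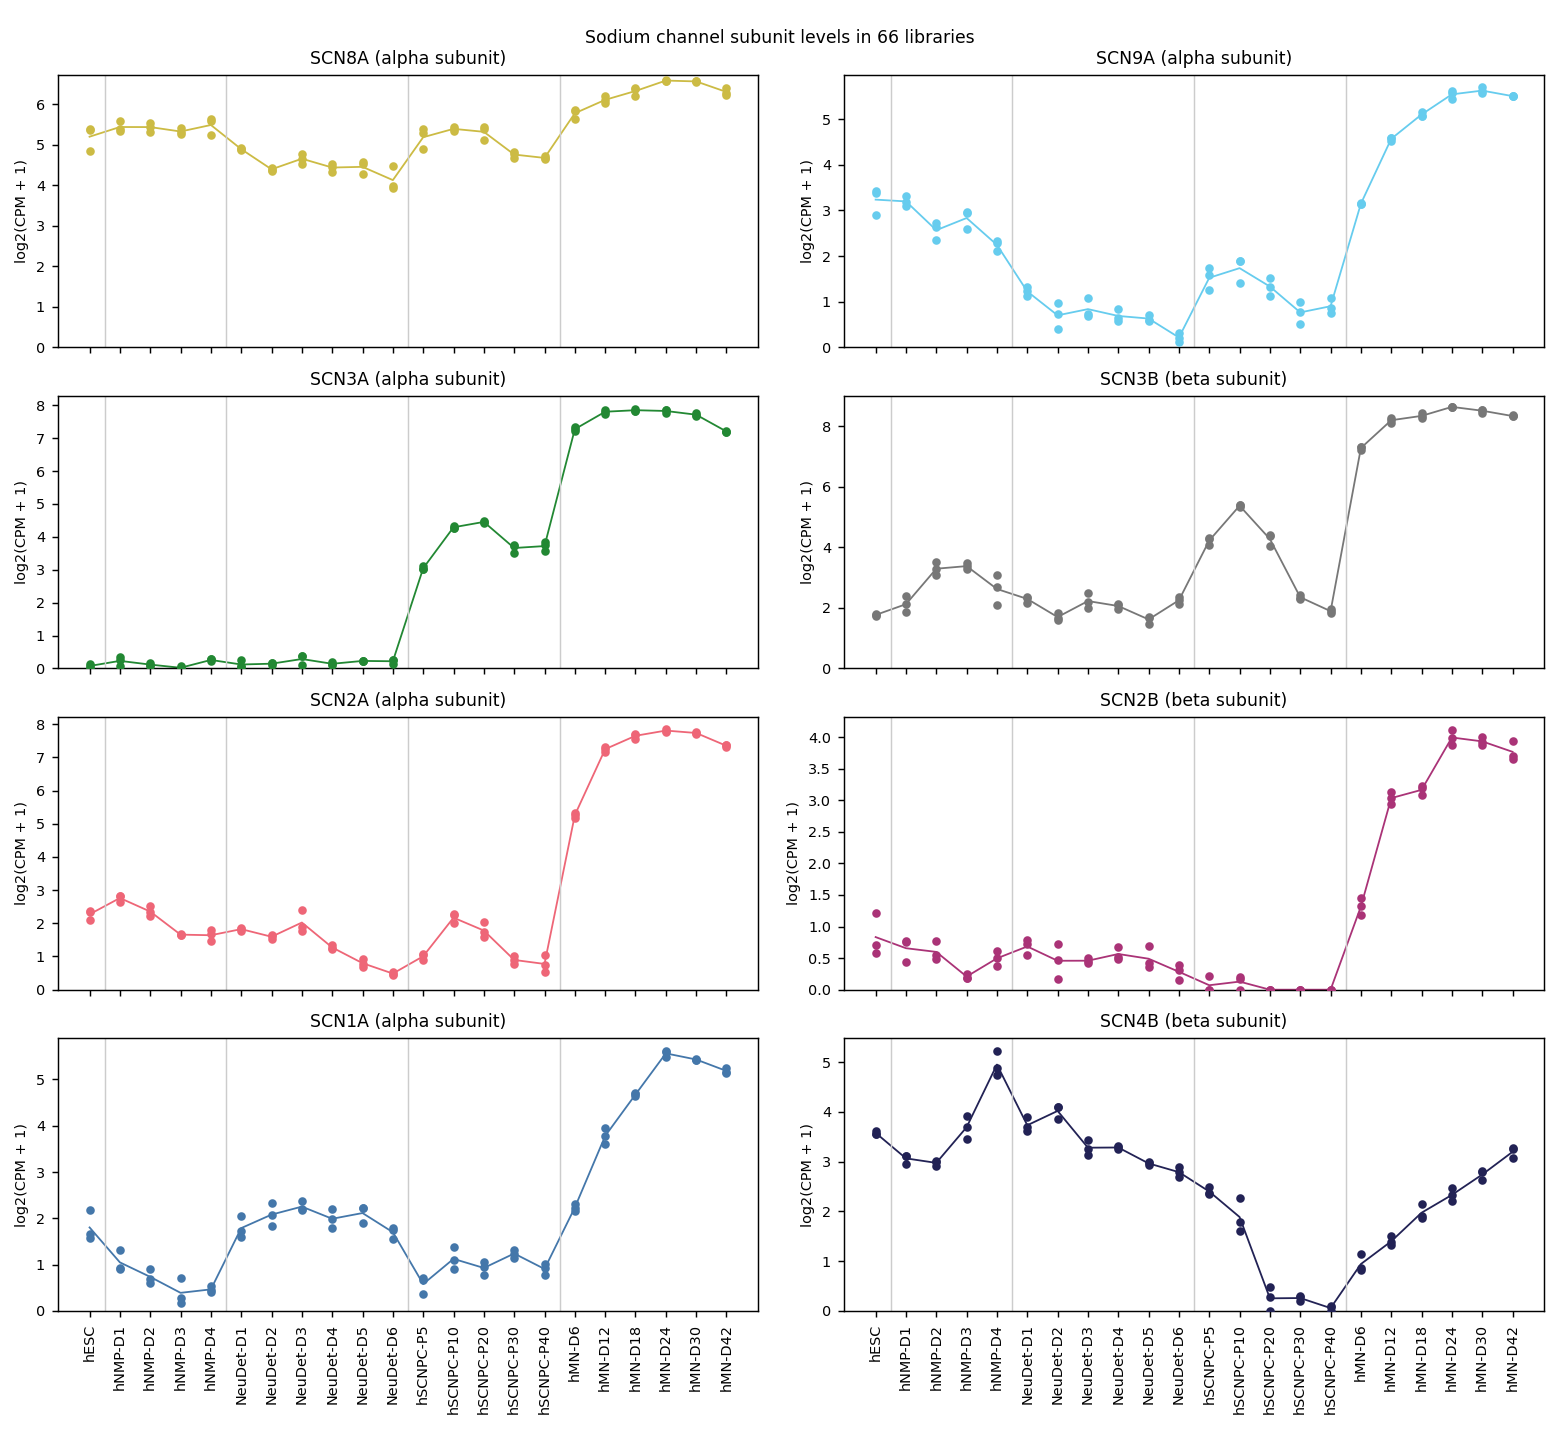
Levels of the 8 subunits in all 66 libraries. Each panel plots log2(CPM + 1) by group in protocol order, points are libraries, the line joins the group means and grey lines separate the stages. SCN8A was present throughout and SCN3A appeared at hSCNPC-P5. All members except SCN4B were highest in hMN, and SCN4B was highest in hNMP-D4.

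The first comparisons asked which subunits were present before neural progenitors formed. Among the 5 alpha members SCN8A had the highest level per kilobase in stem cells, with SCN9A behind it, and the SCN3A gene was almost silent. Of the 8 members, 3 rose (SCN8A, SCN3B and SCN4B) and 3 fell (SCN1A, SCN2A and SCN9A) in hNMP-D4 over hESC at an adjusted p under 0.05, which is what called means below (edgeR's quasi-likelihood test with Benjamini-Hochberg adjustment), in a comparison in which 54.3% of all 21597 genes tested were called, 26.7% as higher and 27.6% as lower.

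SCN8A had 36.7, 48.6 and 47.1 CPM in hNMP-D4, against 27.6, 40.2 and 40.9 CPM in hESC. These libraries overlapped, and the call (log2 fold change 0.29, SE 0.13, edgeR, adjusted p = 0.047) was lost without hESC replicate 1 (0.17, adjusted p = 0.27), without hNMP-D4 replicate 2 (0.26, 0.12) or replicate 3 (0.23, 0.19), and under DESeq2 (0.27, 0.061). SCN9A had 3.88, 3.34 and 4.03 CPM in hNMP-D4, against 6.49, 9.38 and 9.81 CPM in hESC. Every hNMP-D4 library was below every hESC library for SCN9A (log2 fold change -1.18, SE 0.22, edgeR, adjusted p = 5.66e-06).

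SCN1A, the alpha gene most often mutated in Dravet syndrome, had 0.367, 0.318 and 0.462 CPM in hNMP-D4, against 1.98, 2.17 and 3.50 CPM in hESC. The groups did not overlap (log2 fold change -2.69, SE 0.32, edgeR, adjusted p = 4.16e-10). The hNMP-D4 values of SCN1A rest on 24 counts over the group. SCN2A fell by 0.84 on the log2 scale (SE 0.20, edgeR, adjusted p = 0.00031). SCN3A had 3 counts over the 3 hESC libraries and 12 over those of hNMP-D4, a ratio of 3.44 with a 95% counting interval of 0.927 to 19, and was not called (edgeR, adjusted p = 0.060). Intervals of this kind cover counting error only.

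SCN4B, whose product is bound to the alpha subunit by a disulfide bond and can act as an open-channel blocker, had 28.7, 36.3 and 25.8 CPM in hNMP-D4, against 10.8, 11.2 and 10.8 CPM in hESC. All hNMP-D4 libraries were above all hESC libraries (log2 fold change 1.47, SE 0.14, edgeR, adjusted p = 2.86e-13), and hNMP-D4 was the highest of the 22 groups for SCN4B, above the next group, NeuDet-D2, with no overlap. SCN3B, which binds alpha subunits without a covalent bond, had 3.25, 5.51 and 7.52 CPM in hNMP-D4, against 2.48, 2.44 and 2.31 CPM in hESC. Its hNMP-D4 libraries spread widely and lay above those of hESC (log2 fold change 1.19, SE 0.19, edgeR, adjusted p = 5.73e-07). SCN2B was not called, at 25 counts over hNMP-D4 and 42 over hESC (edgeR, adjusted p = 0.083).

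Over the neural determination stage 5 of the 8 members fell, SCN1A rose, and SCN3A and SCN2B were not called. SCN1A rose and SCN2A, SCN8A, SCN9A, SCN3B and SCN4B fell in NeuDet-D6 over hNMP-D4, 6 called members in all, where 65.1% of the 21597 genes were called, 30.3% as higher and 34.8% as lower. SCN1A had 1.95, 2.48 and 2.34 CPM in NeuDet-D6, against 0.367, 0.318 and 0.462 CPM in hNMP-D4 (log2 fold change 2.47, SE 0.31, edgeR, adjusted p = 9.86e-10). The rise came at the first day, where NeuDet-D1 had 2.02, 2.30 and 3.15 CPM (log2 fold change 2.63 over hNMP-D4, SE 0.31, edgeR, adjusted p = 2.44e-10), and no later NeuDet step of SCN1A was called.

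SCN9A had 0.251, 0.0783 and 0.156 CPM in NeuDet-D6, which is 16 counts over the group, against 3.88, 3.34 and 4.03 CPM in hNMP-D4. The groups were far apart (log2 fold change -4.56, SE 0.33, edgeR, adjusted p = 6.69e-18). NeuDet-D6 was the lowest of the 22 groups for SCN9A, without overlap with the next group. By group means it was also the lowest for SCN8A and SCN2A. There its libraries overlapped those of NeuDet-D2 for SCN8A and of hSCNPC-P40 for SCN2A. SCN8A had 14.7, 14.2 and 21.4 CPM in NeuDet-D6, below all 3 hNMP-D4 libraries (log2 fold change -1.47, SE 0.13, edgeR, adjusted p = 2.54e-13). SCN2A, at 0.446, 0.365 and 0.390 CPM in NeuDet-D6, against 2.47, 1.75 and 2.18 CPM in hNMP-D4, fell by 2.45 on the log2 scale (SE 0.25, edgeR, adjusted p = 8.98e-13).

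SCN4B fell by 2.41 on the log2 scale (SE 0.14, edgeR, adjusted p = 1.59e-21), to 5.46, 5.93 and 6.40 CPM in NeuDet-D6. SCN3B had 4.10, 3.42 and 3.83 CPM in NeuDet-D6, against 3.25, 5.51 and 7.52 CPM in hNMP-D4. These libraries overlapped, and the call (log2 fold change -0.60, SE 0.17, edgeR, adjusted p = 0.0016) was lost without hNMP-D4 replicate 3, at -0.27 (adjusted p = 0.19). SCN3A stayed at 0.104 to 0.195 CPM in NeuDet-D6 (log2 fold change -0.32, SE 0.47, edgeR, adjusted p = 0.61), and SCN2B was not called (edgeR, adjusted p = 0.14).

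The next comparison asked what changed once progenitors were established in culture. All 8 members were called in hSCNPC-P5 over NeuDet-D6, where 59.4% of genes were called (28.8% as higher and 30.6% as lower), with SCN2A, SCN3A, SCN8A, SCN9A and SCN3B higher and SCN1A, SCN2B and SCN4B lower. SCN3A had 7.10, 7.65 and 7.06 CPM in hSCNPC-P5, against 0.195, 0.104 and 0.195 CPM in NeuDet-D6, where 16 counts were seen over the group. Its change (log2 fold change 5.46, SE 0.24, edgeR, adjusted p = 1.95e-26) was the largest rise of the 8 here, and each of the 11 earlier groups lay below 1 CPM. The pan-neuronal markers moved in the same direction, with sums of 591.5 to 610.9 CPM in hSCNPC-P5 and 49.9 to 56.1 CPM in NeuDet-D6, and their part in the result was not tested.

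SCN9A had 2.01, 1.38 and 2.32 CPM in hSCNPC-P5, against 0.251, 0.0783 and 0.156 CPM in NeuDet-D6 (log2 fold change 3.54, SE 0.36, edgeR, adjusted p = 2.42e-12). SCN3B had 19.0, 16.1 and 18.4 CPM in hSCNPC-P5, against 4.10, 3.42 and 3.83 CPM in NeuDet-D6 (log2 fold change 2.25, SE 0.16, edgeR, adjusted p = 1.80e-18). Neither gene's libraries overlapped between the groups. SCN2A rose by 1.34 (SE 0.28) and SCN8A by 1.12 (SE 0.13) on the log2 scale. SCN1A, by contrast, had 0.591, 0.288 and 0.633 CPM in hSCNPC-P5, below all 3 NeuDet-D6 libraries (log2 fold change -2.13, SE 0.31, edgeR, adjusted p = 3.18e-08).

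SCN4B was lower at 4.14, 4.08 and 4.64 CPM in hSCNPC-P5 (log2 fold change -0.45, SE 0.16, edgeR, adjusted p = 0.016). SCN2B, whose product is linked to the alpha subunit by a disulfide bond, had 3 counts over the hSCNPC-P5 libraries and 23 over those of NeuDet-D6, a ratio of 0.244 with a 95% counting interval of 0.047 to 0.809. The SCN2B call (edgeR, adjusted p = 0.044) was lost under DESeq2 (0.066), without a filter on low counts (0.060), and without NeuDet-D6 replicate 1 (0.13) or 2 (0.071) or hSCNPC-P5 replicate 1 (0.17) or 2 (0.17), which leaves 7 called members.

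Over the passages the largest fold changes were those of beta subunits. In hSCNPC-P40 over hSCNPC-P5, SCN3A rose and SCN8A, SCN9A, SCN3B and SCN4B fell, 5 members in a comparison that called 46.9% of genes, 22.8% as higher and 24.1% as lower. SCN3B had 2.70, 2.55 and 2.90 CPM in hSCNPC-P40, against 19.0, 16.1 and 18.4 CPM in hSCNPC-P5 (log2 fold change -2.69, SE 0.17, edgeR, adjusted p = 2.08e-19). SCN4B had 2 counts over the hSCNPC-P40 libraries and 229 over those of hSCNPC-P5, a ratio of 0.00829 with a 95% counting interval of 0.000998 to 0.0303 (edgeR, adjusted p = 1.69e-19). SCN2B had no count in any library of hSCNPC-P20, hSCNPC-P30 or hSCNPC-P40, and with 3 counts over hSCNPC-P5 no fold is given.

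The alpha genes had smaller fold changes. SCN3A had 10.9, 13.3 and 12.4 CPM in hSCNPC-P40, against 7.10, 7.65 and 7.06 CPM in hSCNPC-P5, with no overlap (log2 fold change 0.76, SE 0.15, edgeR, adjusted p = 3.88e-05). SCN8A fell by 0.54 (SE 0.13) and SCN9A by 1.07 (SE 0.30) on the log2 scale. SCN1A (log2 fold change 0.79, SE 0.37, edgeR, adjusted p = 0.076) and SCN2A (-0.41, SE 0.28, adjusted p = 0.28) were not called, although SCN2A was called without hSCNPC-P40 replicate 3 (-0.89, adjusted p = 0.041). Cell markers also differed between these passages. The pan-neuronal sums overlapped, at 603.3 to 630.4 CPM in hSCNPC-P40 and 591.5 to 610.9 CPM in hSCNPC-P5, but of the 8 markers 2 were higher and 5 lower (median log2 fold change -0.92). All 5 neural progenitor markers were lower, summing to 2533 to 2683 CPM in hSCNPC-P40 and 3903 to 3996 CPM in hSCNPC-P5, as were all 4 interneuron markers tested, at 1.95 to 2.92 CPM in hSCNPC-P40 and 25.7 to 30.7 CPM in hSCNPC-P5. The oligodendrocyte lineage markers summed to 478.5 to 490.6 CPM in hSCNPC-P40 and 172.1 to 182.0 CPM in hSCNPC-P5, with 1 higher and 3 lower of the 4 tested. The part of these markers in the subunit changes was not tested.

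The path between passages was not even. The levels of SCN3A and SCN3B were above their passage 5 and passage 40 values at passage 10, with 18.4, 18.4 and 18.9 CPM of SCN3A and 39.6, 40.9 and 41.5 CPM of SCN3B. In hSCNPC-P20 over hSCNPC-P10 only SCN3B (log2 fold change -1.11, SE 0.14, edgeR, adjusted p = 3.63e-09) and SCN4B (-3.62, SE 0.34, adjusted p = 4.06e-13) were called, 2 of 8, both lower, where 25.5% of genes were called and 14.6% as lower. The count was 4 without hSCNPC-P10 replicate 2, 3 without hSCNPC-P10 replicate 3 or hSCNPC-P20 replicate 2, and 5 in a single fit of all 66 libraries, the added genes being SCN2A, SCN9A and SCN2B. SCN2B had 6 counts over hSCNPC-P10 and 0 over hSCNPC-P20, at least 1.93-fold lower against a floor of 3 counts over the group. Over all 15 successive steps from hESC to hSCNPC-P40, 53 of 120 member-by-step tests were called, and 34.7% of the tests of all genes in the same steps were.

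**Figure D2:**
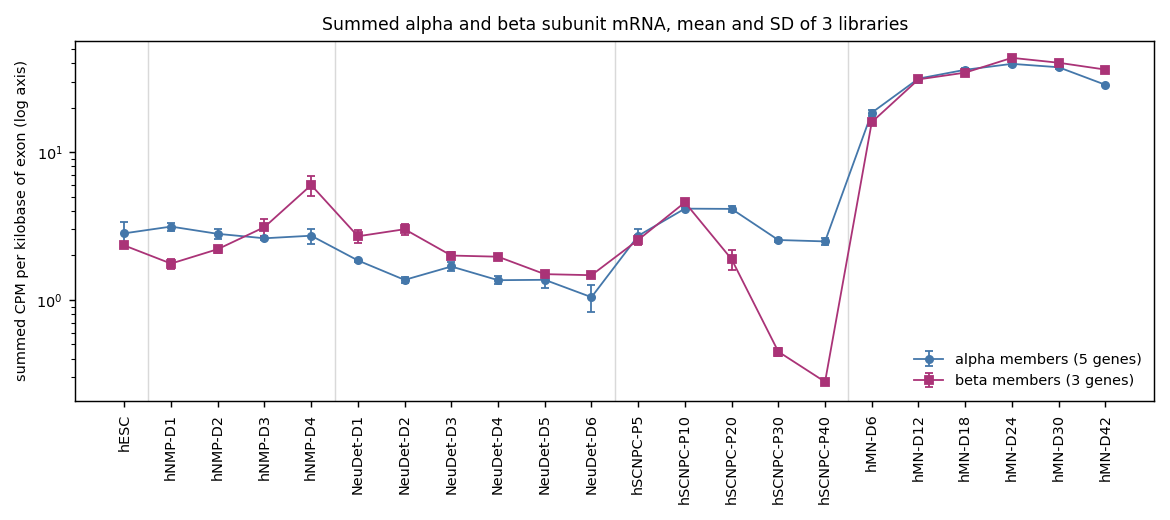
Summed level of the 5 alpha and 3 beta members by group, in CPM per kilobase of exon on a log axis, as mean and SD of 3 libraries. The sums parted over passages, to 2.49 (alpha) and 0.279 (beta) in hSCNPC-P40, and lay close together in hMN-D6 to hMN-D42.

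As a sum per kilobase of exon, the alpha members stood at 2.49 ± 0.13 CPM per kb in hSCNPC-P40 and the beta members at 0.279 ± 0.012 CPM per kb (SD, n = 3 libraries), so that the alpha members were 89.9% of both. At passage 5 the alpha share was 51.5%, and at passage 10 it was 47.6%. In the motor neuron groups it ran from 44.1% in hMN-D42 to 53.7% in hMN-D6. Among these 8 members the lowest alpha share was 31.3% in NeuDet-D2, next to 31.4% in hNMP-D4, the groups in which SCN4B was highest. These shares cover the 8 members only, and sodium channel genes outside the set would change them, most of all at the early stages. In NeuDet-D2 the members made up 33.9% of the summed level of 9 alpha genes, against 88.1% for 4 beta genes. In hNMP-D4 they made up 51.9% and 80.8%. With those genes counted the alpha share would be higher in both groups, so the ranking applies to the 8 members alone.

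The next comparison was the onset of motor neuron differentiation, in which 7 of the 8 subunits were higher than in hSCNPC-P10 on the CPM scale. In hMN-D6 over hSCNPC-P10, 7 members rose and SCN4B fell, 8 called of 8, in a comparison that called 75.2% of the 21175 genes tested, 38.5% as higher and 36.7% as lower. The largest rises were of SCN2B, SCN2A and SCN3A, each by more than 3 on the log2 scale, and the smallest was of SCN8A. No call among the 8 was lost when any single library was left out or under any other setting tried, but all of these keep hSCNPC-P10 on the other side. The hMN counts were also deposited as a separate set. In any comparison of hMN with earlier groups, a processing difference between the sets cannot be told apart from differentiation.

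SCN3A had 146.6, 159.9 and 155.3 CPM in hMN-D6, against 18.4, 18.4 and 18.9 CPM in hSCNPC-P10. All hMN-D6 libraries were far above those of hSCNPC-P10 (log2 fold change 3.01, SE 0.05, edgeR, adjusted p = 6.46e-43). SCN2A had 35.1, 39.3 and 37.7 CPM in hMN-D6, against 3.71, 3.00 and 3.83 CPM in hSCNPC-P10 (log2 fold change 3.35, SE 0.09, edgeR, adjusted p = 1.02e-35). SCN9A had 7.96, 7.81 and 7.86 CPM in hMN-D6, against 2.72, 2.73 and 1.66 CPM in hSCNPC-P10 (log2 fold change 1.69, SE 0.13, edgeR, adjusted p = 3.97e-17). Neither SCN2A nor SCN9A overlapped between the groups, but the hMN-D6 level of SCN9A was no higher than that of hESC, whose libraries ran from 6.49 to 9.81 CPM.

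SCN1A had 3.98, 3.67 and 3.47 CPM in hMN-D6, against 1.60, 0.866 and 1.14 CPM in hSCNPC-P10 (log2 fold change 1.52, SE 0.18, edgeR, adjusted p = 6.73e-11). The groups did not overlap, but the hMN-D6 libraries of SCN1A overlapped those of NeuDet-D3, which ran from 3.56 to 4.18 CPM. SCN8A had 48.9, 56.9 and 55.9 CPM in hMN-D6, against 40.9, 39.6 and 42.4 CPM in hSCNPC-P10, a small difference without overlap (log2 fold change 0.36, SE 0.06, edgeR, adjusted p = 5.21e-07).

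Among the beta genes, SCN3B had 148.8, 158.4 and 158.6 CPM in hMN-D6, against 39.6, 40.9 and 41.5 CPM in hSCNPC-P10 (log2 fold change 1.90, SE 0.05, edgeR, adjusted p = 2.09e-35). SCN2B had 1.27, 1.73 and 1.495 CPM in hMN-D6, against 0.130, 0 and 0.155 CPM in hSCNPC-P10, where 6 counts were seen over the group (log2 fold change 3.75, SE 0.37, edgeR, adjusted p = 6.17e-13). Both were higher in every hMN-D6 library, but those of SCN2B overlapped hESC, whose libraries ran from 0.495 to 1.31 CPM. SCN4B had 0.830, 0.760 and 1.21 CPM in hMN-D6, against 2.03, 2.46 and 3.83 CPM in hSCNPC-P10, the opposite direction and again without overlap (log2 fold change -1.60, SE 0.22, edgeR, adjusted p = 9.08e-09).

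The direction of SCN4B turned with the passage set beside hMN-D6, and the passage that was differentiated is not known. Every hMN-D6 library of SCN4B was above those of hSCNPC-P20 (0 to 0.392 CPM), hSCNPC-P30 (0.143 to 0.233 CPM) and hSCNPC-P40 (0 to 0.0672 CPM). SCN3B stayed in 1 direction but not of 1 size, since its 2.55 to 2.90 CPM in hSCNPC-P40 lay far below the 39.6 to 41.5 CPM of hSCNPC-P10. These later passages were not in the fit with hMN, so no test is given.

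Other markers moved with these changes. The pan-neuronal sum was 7168 to 7461 CPM in hMN-D6 and 1125 to 1181 CPM in hSCNPC-P10, with all 8 markers higher, while the 4 cycling cell markers summed to 28.9 to 34.7 CPM in hMN-D6 and 1215 to 1227 CPM in hSCNPC-P10. Markers of other neuron types were also present in hMN-D6, at 109.6 to 112.5 CPM for 3 glutamatergic, 34.3 to 38.5 CPM for 5 interneuron (PVALB without a count) and 19.8 to 23.6 CPM for 5 sensory neuron markers. Their part in the subunit results was not tested.

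Set against the pan-neuronal sum, 4 of the 7 members that rose were lower in hMN-D6 than in hSCNPC-P10, without overlap. Per 1000 CPM of these markers, SCN8A had 7.33 ± 0.45 CPM in hMN-D6 and 35.5 ± 2.13 in hSCNPC-P10, and SCN3B had 21.1 ± 0.31 in hMN-D6 and 35.2 ± 1.44 in hSCNPC-P10 (SD, n = 3). SCN9A had 1.07 ± 0.034 in hMN-D6 and 2.05 ± 0.49 in hSCNPC-P10, and SCN1A had 0.505 ± 0.046 in hMN-D6 and 1.04 ± 0.32 in hSCNPC-P10. SCN2A, SCN3A and SCN2B were higher in hMN-D6 on this scale too, at 5.08 ± 0.21, 20.9 ± 0.56 and 0.204 ± 0.028, against 3.05 ± 0.46, 16.1 ± 0.63 and 0.083 ± 0.073 in hSCNPC-P10.

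**Figure D3:**
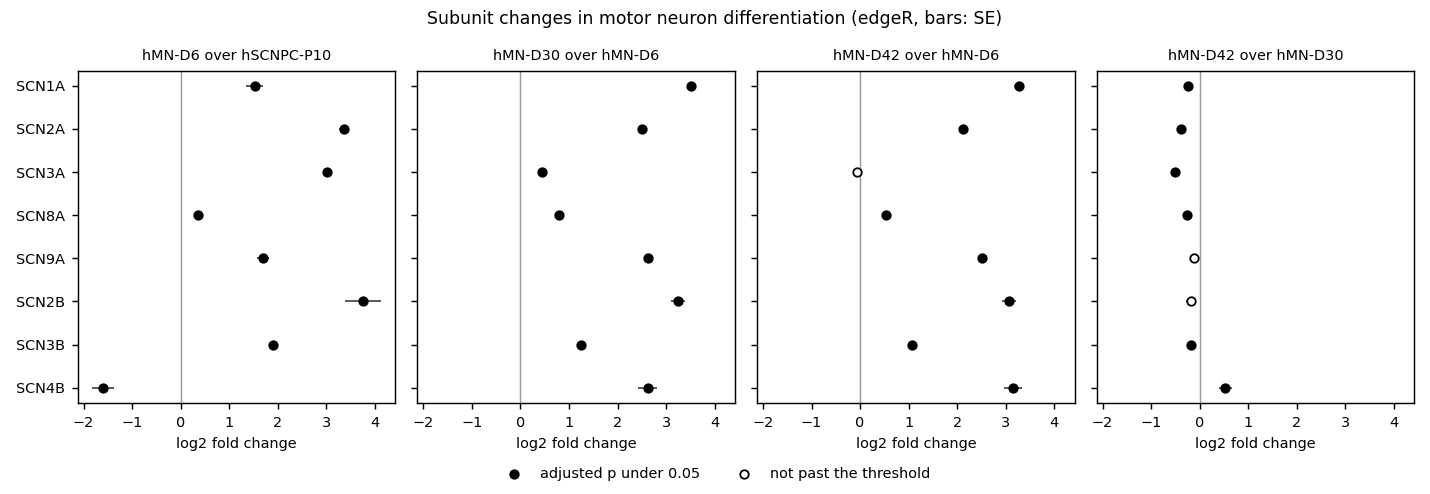
Log2 fold change of each subunit in the 4 motor neuron comparisons, with SE from edgeR as bars (often smaller than the point). Filled points passed an adjusted p of 0.05, and values right of 0 are higher in the group named first. SCN4B was lower in hMN-D6 than in hSCNPC-P10, though not lower than in hSCNPC-P20 to hSCNPC-P40, which are not plotted, and higher in hMN-D42 than in hMN-D30.

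The time course of hMN asked how the set changed as the motor neurons aged in culture. All 8 members rose in hMN-D30 over hMN-D6, where 63.4% of genes were called and 32.9% as higher. The rises were uneven, at 3.52 (SE 0.09) on the log2 scale for SCN1A, 3.24 (SE 0.14) for SCN2B, 2.63 (SE 0.07) for SCN9A, 2.62 (SE 0.20) for SCN4B and 2.51 (SE 0.05) for SCN2A, but 1.25 (SE 0.04) for SCN3B, 0.80 (SE 0.05) for SCN8A and 0.45 (SE 0.04) for SCN3A. The pan-neuronal sum was 6321 to 6333 CPM in hMN-D30 and 7168 to 7461 CPM in hMN-D6, with 4 markers higher and 4 lower, and the motor neuron sum was 110.9 to 115.9 CPM in hMN-D30 and 63.1 to 66.3 CPM in hMN-D6. The astrocyte markers summed to 9.83 to 12.7 CPM in hMN-D30 and 3.46 to 3.96 CPM in hMN-D6, and the oligodendrocyte lineage markers to 39.1 to 47.97 CPM in hMN-D30 and 13.3 to 15.8 CPM in hMN-D6. The glutamatergic markers summed to 62.8 to 66.2 CPM in hMN-D30 and 109.6 to 112.5 CPM in hMN-D6, although 2 of the 3 were higher and 1 lower. Of 5 neural progenitor markers, 4 were lower. Their part in the subunit changes was not tested.

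SCN1A showed the largest change of the alpha genes. Its 3 libraries had 42.8, 42.2 and 41.6 CPM in hMN-D30, against 3.98, 3.67 and 3.47 CPM in hMN-D6, and it still had 34.7, 37.2 and 34.3 CPM in hMN-D42. It peaked at hMN-D24, with 43.6, 48.2 and 47.3 CPM, and was called in each step up to there (edgeR, adjusted p = 2.41e-20 for hMN-D12 over hMN-D6, 1.12e-13 for hMN-D18 over hMN-D12 and 1.07e-15 for hMN-D24 over hMN-D18). SCN2A did most of its rise earlier, with 141.1, 152.6 and 159.5 CPM at hMN-D12, 221.3, 229.0 and 218.4 CPM at hMN-D24 and 163.3, 157.6 and 164.5 CPM at hMN-D42.

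SCN3A was near its plateau already at hMN-D12, where it had 214.1, 222.3 and 231.4 CPM, and its groups at hMN-D12, hMN-D18 and hMN-D24 overlapped. By hMN-D42 it had 148.5, 144.8 and 145.7 CPM, within the range of hMN-D6 (146.6, 159.9 and 155.3 CPM) for 1 library and below it for the others. SCN8A had 93.7, 92.4 and 94.2 CPM in hMN-D30, against 48.9, 56.9 and 55.9 CPM in hMN-D6, and its hMN-D24 and hMN-D30 libraries overlapped. SCN9A kept rising to hMN-D24 and then levelled, with 48.2, 51.1 and 46.4 CPM in hMN-D30 and 44.8, 44.3 and 44.5 CPM in hMN-D42.

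In hMN-D42 over hMN-D6, 7 members rose, where 65.9% of genes were called, 34.6% as higher and 31.3% as lower. SCN3A was the member not called (log2 fold change -0.06, SE 0.04, edgeR, adjusted p = 0.19), and without hMN-D6 replicate 1 it was called as lower (-0.10, adjusted p = 0.0499). SCN1A was 3.27 (SE 0.09), SCN9A 2.51 (SE 0.07), SCN2A 2.12 (SE 0.05) and SCN8A 0.54 (SE 0.05) higher on the log2 scale. In successive steps from hMN-D6 to hMN-D42, 28 of 40 member-by-step tests were called, and 29.8% of the tests of all genes in the same steps were. In hMN-D30 over hMN-D24 SCN4B alone was called among the members, at 0.51 (SE 0.15, edgeR, adjusted p = 0.017), where 11.9% of genes were.

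The last interval showed a decline on the CPM scale. In hMN-D42 over hMN-D30, SCN1A, SCN2A, SCN3A, SCN8A and SCN3B fell and SCN4B rose, 6 of 8 members where 41.7% of genes were called, 19.9% as lower and 21.8% as higher. SCN3A had 148.5, 144.8 and 145.7 CPM in hMN-D42, against 217.0, 206.4 and 203.7 CPM in hMN-D30 (log2 fold change -0.51, SE 0.04, edgeR, adjusted p = 1.30e-14). SCN2A had 163.3, 157.6 and 164.5 CPM in hMN-D42, against 217.4, 206.2 and 211.9 CPM in hMN-D30 (log2 fold change -0.39, SE 0.04, edgeR, adjusted p = 5.51e-10). For both genes every hMN-D42 library was below every hMN-D30 library.

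The falls of SCN1A (-0.25, SE 0.06), SCN8A (-0.26, SE 0.05) and SCN3B (-0.17, SE 0.04) were smaller, and in a single fit of all 66 libraries they were not called (edgeR, adjusted p = 0.10, 0.061 and 0.095), leaving 3 called members. SCN9A (-0.12, SE 0.06, edgeR, adjusted p = 0.077) and SCN2B (-0.17, SE 0.10, adjusted p = 0.17) were not called, although SCN2B was without hMN-D42 replicate 2 (-0.28, adjusted p = 0.047). SCN4B had 8.55, 7.41 and 8.63 CPM in hMN-D42, against 5.92, 5.18 and 6.01 CPM in hMN-D30, above them in every library (log2 fold change 0.53, SE 0.14, edgeR, adjusted p = 0.0020).

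Cell markers also moved over this interval. The pan-neuronal sum was 4944 to 5106 CPM in hMN-D42 and 6321 to 6333 CPM in hMN-D30, the 5 astrocyte markers summed to 32.8 to 35.7 CPM in hMN-D42 and 9.83 to 12.7 CPM in hMN-D30, and the 5 oligodendrocyte lineage markers to 100.2 to 109.8 CPM in hMN-D42 and 39.1 to 47.97 CPM in hMN-D30, with MOG without a count at both. The 4 cycling cell markers summed to 61.6 to 70.1 CPM in hMN-D42 and 21.7 to 30.2 CPM in hMN-D30, and the part of these markers in the subunit changes was not tested. Set against the pan-neuronal sum, SCN3A had 29.0 ± 0.89 CPM per 1000 CPM of these markers in hMN-D42 and 33.1 ± 1.08 in hMN-D30 (SD, n = 3), with no overlap. SCN2A had 32.1 ± 1.12 in hMN-D42 and 33.5 ± 0.85 in hMN-D30 on the same scale, where its libraries overlapped. SCN1A had 7.02 ± 0.26 in hMN-D42 and 6.67 ± 0.088 in hMN-D30, and SCN3B 64.2 ± 1.27 in hMN-D42 and 57.9 ± 2.19 in hMN-D30. SCN8A had 15.45 ± 0.84 in hMN-D42 and 14.78 ± 0.14 in hMN-D30, so none of SCN1A, SCN3B and SCN8A was lower per neuronal marker. SCN4B had 1.63 ± 0.15 in hMN-D42 and 0.902 ± 0.071 in hMN-D30, again without overlap.

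The beta genes differed in course across the motor neuron groups. SCN3B, the beta member with the highest level per kilobase in every motor neuron group, had 148.8, 158.4 and 158.6 CPM in hMN-D6, 395.4, 401.6 and 402.2 CPM in hMN-D24 and 321.5, 320.5 and 329.9 CPM in hMN-D42. SCN2B had 1.27, 1.73 and 1.495 CPM in hMN-D6, 13.8, 16.3 and 14.9 CPM in hMN-D24 and 12.04, 14.4 and 11.6 CPM in hMN-D42. SCN4B rose in each of the 5 steps, with 0.830, 0.760 and 1.21 CPM in hMN-D6 and 8.55, 7.41 and 8.63 CPM in hMN-D42. Its libraries in hMN-D42 overlapped those of hNMP-D1 and stayed below all 3 of hNMP-D4.

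**Figure D4:**
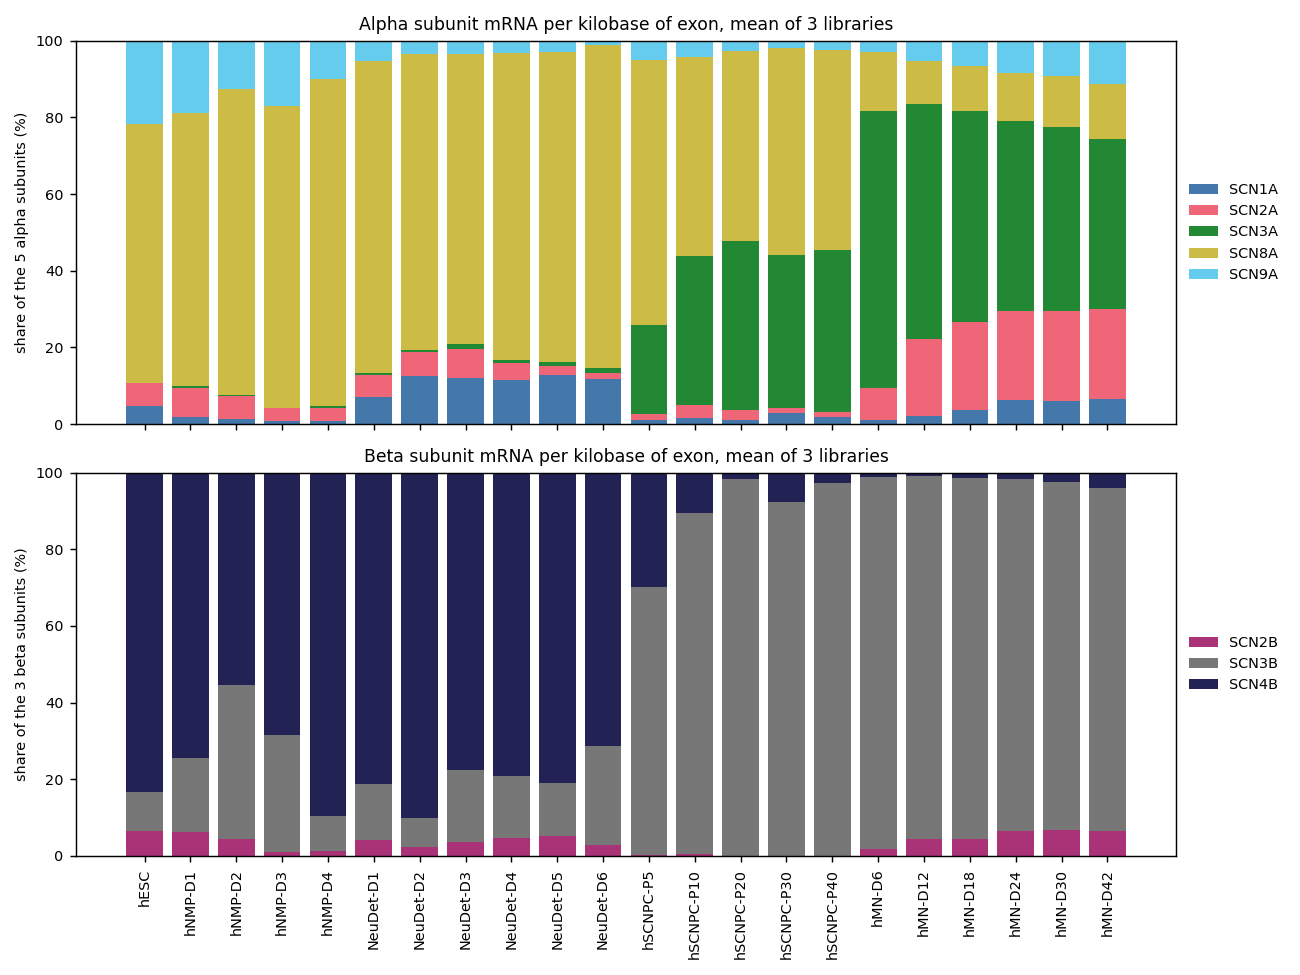
Share of each subunit among the 5 alpha members (top) and the 3 beta members (bottom), in percent of CPM per kilobase of exon, as means of 3 libraries per group. SCN8A gave 84.1% of the alpha members in NeuDet-D6, SCN3A 72.1% in hMN-D6 and 44.3% in hMN-D42, and SCN3B replaced SCN4B as the main beta member at hSCNPC-P5.

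Shares within each library need no scaling between libraries and show the composition of the set directly. Counted per kilobase of exon over the 5 alpha members, SCN8A made up 67.5% in hESC and 84.1% in NeuDet-D6, then 52.0% in hSCNPC-P10 and 14.4% in hMN-D42. SCN3A made up 0.194% in hESC and 1.37% in NeuDet-D6, then 38.8% in hSCNPC-P10, 72.1% in hMN-D6 and 44.3% in hMN-D42. SCN9A, the second alpha member of hESC at 21.7%, made up 1.14% in NeuDet-D6 and 11.2% in hMN-D42. By group means, the largest share among these 5 members was that of SCN8A in every group up to hSCNPC-P40 and that of SCN3A in every hMN group. In hSCNPC-P20 the shares of these genes overlapped, and replicate 3 had 47.2% SCN3A and 45.4% SCN8A. Other alpha genes, such as SCN4A, stand outside these shares. The order of SCN3A and SCN2A late in hMN depends on the division by length. Without it, the mean of SCN2A was 211.8 CPM in hMN-D30 and 161.8 CPM in hMN-D42. That of SCN3A was 209.0 CPM in hMN-D30 and 146.3 CPM in hMN-D42. The exon length used was 24087 bases for SCN2A and 11566 for SCN3A, whereas their longest transcripts have 11676 and 9102 bases. Division by the longest transcript keeps SCN3A above SCN2A in both groups, by a smaller ratio.

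Within the motor neuron series the alpha set became more mixed. SCN3A made up 44.3 ± 0.64% in hMN-D42 and 72.1 ± 0.33% in hMN-D6 (SD, n = 3), a difference of -27.8 percentage points. SCN2A made up 23.5 ± 0.32% in hMN-D42 and 8.40 ± 0.093% in hMN-D6, a difference of 15.1 points. SCN9A (8.13 points) and SCN1A (5.48 points) gained as well. None of these 4 overlapped between the groups, and each reached the smallest p that 3 against 3 libraries allow, 0.1 in a two-sided exact permutation test, so the design cannot pass 0.05. SCN8A made up 14.4 ± 0.82% in hMN-D42 and 15.3 ± 0.56% in hMN-D6, which overlapped (difference -0.97 points, exact permutation p = 0.2).

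Among the 3 beta members, SCN4B made up 83.2% in hESC, 89.5% in hNMP-D4 and 71.5% in NeuDet-D6, and 29.9% in hSCNPC-P5, where SCN3B made up 69.8%. SCN3B then held 97.2 ± 0.25% in hMN-D6 and 89.4 ± 0.52% in hMN-D42 (SD, n = 3), a difference of -7.78 points for hMN-D42 minus hMN-D6. SCN2B gained 4.80 points and SCN4B 2.98 points over the same interval, all 3 without overlap and with the smallest possible exact permutation p of 0.1.

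Genes that work with the channels were taken from lists drawn up with earlier results of these data known. Of 7 other sodium channel genes, 6 were tested, and 4 were higher and 2 lower in hMN-D6 over hSCNPC-P10 while 5 were higher and 1 lower in hMN-D42 over hMN-D6. NALCN, the sodium leak channel, had the largest rise in both, by 2.74 (SE 0.19) and then 2.61 (SE 0.09) on the log2 scale. SCN4A fell by 3.02 (SE 0.47) in hMN-D6 over hSCNPC-P10, at 8 counts over hMN-D6 and 61 over hSCNPC-P10, and SCN11A fell by 0.83 (SE 0.16) in hMN-D42 over hMN-D6.

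The FGF homologous factors bind the C terminus of the alpha subunit and shift inactivation. Of these 4, 2 were higher and 0 lower in hMN-D6 over hSCNPC-P10, and 4 were higher in hMN-D42 over hMN-D6. FGF14 rose by 1.94 (SE 0.13) in the first comparison and FGF12 by 1.73 (SE 0.07) in the second.

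Of 9 genes of the axon initial segment, where sodium channels are anchored, 8 were higher and 1 lower in hMN-D6 over hSCNPC-P10, and 5 were higher and 3 lower in hMN-D42 over hMN-D6. The cell adhesion gene CNTN1 rose most in the first (3.83, SE 0.06) and NRCAM fell (-0.30, SE 0.04), and in the second the potassium channel gene KCNQ3 rose most (2.60, SE 0.09) and NFASC fell most (-0.845, SE 0.07). ANK3, which encodes ankyrin-G, the scaffold that holds sodium channels at this site, had 272.2 to 324.8 CPM in hMN-D6, against 61.5 to 64.7 CPM in hSCNPC-P10 (log2 fold change 2.25, SE 0.07, edgeR, adjusted p = 6.40e-18). It was not called in hMN-D42 over hMN-D6 (-0.06, SE 0.06, edgeR, adjusted p = 0.39).

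The 6 sodium pump genes, which export the sodium that enters, counted 3 higher and 2 lower in hMN-D6 over hSCNPC-P10 and 5 higher and 1 lower in hMN-D42 over hMN-D6. ATP1B1, which encodes a beta subunit of the pump, rose by 2.28 (SE 0.04) on the log2 scale in the first.

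Of 3 genes that regulate channel turnover, the ubiquitin ligase gene NEDD4L rose by 2.27 (SE 0.05) and NEDD4 fell by 2.76 (SE 0.10) on the log2 scale in hMN-D6 over hSCNPC-P10. Both turned in hMN-D42 over hMN-D6, to -0.24 (SE 0.04) for NEDD4L and 2.40 (SE 0.10) for NEDD4. In that list 2 genes were higher and 1 lower in the first comparison, and 1 in each direction in the second.

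REST, a repressor of neuronal genes in cells that are not neurons, and first known from a sodium channel gene of the rat, had 4.76 to 5.91 CPM in hMN-D6, against 40.1 to 46.2 CPM in hSCNPC-P10 (log2 fold change -3.08, SE 0.10, edgeR, adjusted p = 2.63e-32). All 3 genes of the REST repressor list were lower in hMN-D6 over hSCNPC-P10. In hMN-D42 over hMN-D6 REST was 0.98 (SE 0.11) higher, at 9.06 to 11.2 CPM in hMN-D42, and SIN3A, a corepressor, fell by 0.47 (SE 0.05). For all genes the called share was 75.2% in the first of these comparisons and 65.9% in the second, and the lists are described by their counts alone.

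The levels of the members were also compared across groups with those of 14343 other genes, by Pearson's r of mean log2(CPM + 1) over the 22 groups, which share libraries and stages and so are a description only. SCN2A was closest to SPTBN4 (r = 0.987), which encodes the beta-IV spectrin of the axon initial segment, followed by ELMOD1 and EPHA10. SCN3B was closest to AMER3 (0.989), SNAP91 and LRRTM2, SCN9A to PLPPR4 (0.982), PTCHD1 and SNCB, and SCN2B to ATP2B3 (0.986), SLC6A17 and an unnamed gene. SCN8A was closest to RGS7 (0.971), FAAH and EEF1A2, SCN1A to GFOD1 (0.967), SCN2B (0.953) and CAMTA1, and SCN3A to an unnamed gene (0.996), DNM1P51 and TPPP.

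SCN4B stood apart, closest to MMP14 (r = 0.949), a membrane metalloproteinase gene, then PTPRU and PPFIBP2. Its r with the other 7 members ran from -0.56 (SCN3A) to 0.02 (SCN9A), whereas the closest pairs of members were SCN2A with SCN2B (0.963) and SCN8A with SCN9A (0.956).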

How the data were processed

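Total RNA was extracted with TRIzol and made into mRNA-seq libraries with a NEBNext Ultra RNA kit, 3 for each of 22 groups. The deposited values are raw read counts per gene, which the authors produced with featureCounts 1.5.3 and a GENCODE annotation after trimming by fastp and HISAT2 2.1.0 alignment (build hg38). They were not normalized. The release and strand setting are not given in the sources used here. Of 60603 identifiers, 60261 (99.44%) have a symbol in GENCODE v44, which also gave positions and union exon lengths. The 48 libraries from hESC to hSCNPC-P40 (21597 genes) and the 18 hMN with the 3 hSCNPC-P10 libraries (21175 genes) were each fitted in R 4.3.3 with edgeR 4.0.16 (filterByExpr, TMM, robust quasi-likelihood F test), adjusted by Benjamini-Hochberg over all genes tested and called at 0.05. The study names no test for its RNA-seq, so this one was chosen here. Level plots and correlations used a pseudocount of 1 on the CPM scale.

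The members, lists, tests and alternatives were chosen with earlier results of these data known. From each list the text names the called gene with the largest change in each direction in hMN-D6 over hSCNPC-P10 and in hMN-D42 over hMN-D6, with REST and ANK3 in any case, and for each member the 3 genes most like it among those with a mean of at least 5 CPM in a group. Some genes that this rule names are not reported here. Shares were tested by exact permutation over libraries. The fits were tested on simulated data. The alternatives were RLE scaling, other filters, DESeq2 1.42.0, a replicate block, other sets of libraries in the fit, other lengths and denominators for shares, and leaving out each library in turn.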

Additional observations from a re-analysis of the deposited data

How the results depend on the processing

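The counts of called members kept within 1.5 times of their values under every setting tried except 3, and the cause was not tested. In hSCNPC-P20 over hSCNPC-P10 the count of 2 became 5 in one fit of 66 libraries and ranged from 2 to 4 when a library was left out, the highest without hSCNPC-P10 replicate 2. In hMN-D42 over hMN-D30 the count of 6 became 3 in one fit of 66 libraries. Among the fold changes of single members, leaving out a library gave 9 calls more and 8 fewer beside 413 values that kept their call, and the other settings gave 9 more and 10 fewer beside 473. Changes of sign were seen for 2 fold changes that were not called. With a library left out, SCN3A in NeuDet-D6 over hNMP-D4 ranged from -0.43 to 0.02 and SCN8A in hSCNPC-P20 over hSCNPC-P10 from -0.14 to 0.02. All 8 differences in share kept their sign under other lengths, raw counts or a wider denominator, and with each library left out.

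The replicate numbers did not pair the samples, since in none of the comparisons were all 3 correlations of same-numbered deviations over 0.1. With the replicate number as a block the counts of called members were 5 in hNMP-D4 over hESC, where SCN8A was lost (adjusted p = 0.0518), and 7 in hMN-D42 over hMN-D30, where SCN9A was added (adjusted p = 0.0492), with the other 7 comparisons at their count without the block.

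Depth limited SCN2B in hSCNPC, SCN4B from hSCNPC-P20 to hSCNPC-P40 and SCN3A before hSCNPC-P5, where a group held few counts and absence cannot be told from a low level. Lengths come from GENCODE v44, and the release used for counting is not known.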
